A study of Mus musculus with 4 samples.

Results

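The immunoglobulin gene segments are the V, D, J and C segments from which antibody heavy and light chains are built. They were taken as the autosomal genes of GENCODE release M21, on the mouse build mm10 (GRCm38), whose gene type was IG_V_gene, IG_D_gene, IG_J_gene or IG_C_gene. These were 264 of 51229 autosomal genes: 218 V, 19 D, 14 J and 13 C segments. The heavy chain locus (chr12:113254830-116000461) held 144 of them, the kappa light chain locus (chr6:67555497-70726966) held 108, and the lambda light chain locus (chr16:19061618-19260859) held 12. The 161 immunoglobulin pseudogenes and the 4 genes typed IG_LV_gene were not members.

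CTCF, a zinc-finger protein that binds DNA at a long motif, was mapped by chromatin immunoprecipitation and sequencing in gastrocnemius, the large muscle of the calf. The samples came from female B6CASTF1/J mice, hybrids of C57BL/6J and CAST/EiJ, that were adult and 2 months old. Pool E and pool F each joined 2 tissue samples and were sequenced as 2 technical replicates, 4 libraries in all; the tissue had been frozen, and fragments of 200 to 600 bp were selected. Both pools had the same genotype, sex, age and tissue and no treatment, so the comparisons below are between loci and not between conditions. All positions are on mm10, a C57BL/6J sequence, so binding on the C57BL/6J and CAST/EiJ copies of a locus cannot be told apart. Peak lists hold no expression values, so the tissue label was not checked against marker genes.

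The main list was the conservative list, 42163 peaks that passed an irreproducible discovery rate (IDR) of 0.05 between pool E and pool F; the IDR measures how well 2 ranked lists keep the same order. A combined list (49649 peaks) and a list for each pool (50899 for pool E, 33784 for pool F) were set beside it, together with the ranked lists of candidate peaks from which they were made. Each peak has a summit, its highest point, and a strength, which is the authors' own score; the scale of the score was not stated. Over the 41000 conservative autosomal peaks the median strength was 247.0 (quartiles 116.3 and 435.3). In the ranked list behind the conservative list, each peak also carries its strength in pool E and in pool F. The median ratio of pool E to pool F was 2.04 (quartiles 1.66 and 2.47). Technical replicates were merged in every list, so no value below has a spread between replicates and none was tested; 95% Wilson intervals on shares cover counting error only.

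Antibody genes are assembled in developing B lymphocytes, where the RAG recombinase cuts at recombination signals beside the segments and joins a V to a J segment, or a V to a D and a J segment in the heavy chain. A recombination signal begins with a heptamer, CACAGTG in its consensus form, that directly follows the coding end of a V segment. In B cell precursors CTCF is known to bind beside many heavy chain V segments, between the V and D segments, between the kappa V and J segments and beyond the constant end of the heavy chain locus, and it helps to fold these long loci so that distant V segments come near the joining region. Its motif has a direction, and sites that face each other commonly form the ends of a chromatin loop. Muscle fibres do not rearrange these genes. Whole muscle also holds blood and immune cells, and a site bound in few cells and a site bound weakly in many cannot be told apart here.

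Inside the loci there were 17 conservative summits: 11 in the heavy chain locus, 6 in the kappa locus and 0 in the lambda locus. That is 0.401 summits per 100 kb in the heavy chain locus, 0.189 in the kappa locus and 1.71 over the autosomes. The 100 kb beyond each locus edge held 26 more, of which 12 lay past the constant end of the heavy chain locus, a density of 12 per 100 kb, and 8 lay past the constant end of the kappa locus. The pool E list had 14 heavy chain, 7 kappa and 2 lambda summits inside the loci, and the pool F list had 7, 6 and 0. The summits inside the loci were weaker than most: their median strength was 149.4, with a range of 42.8 to 471.3, against 373.8 (140.8 to 629.2) for the 26 summits in the flanks.

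**Figure D1:**
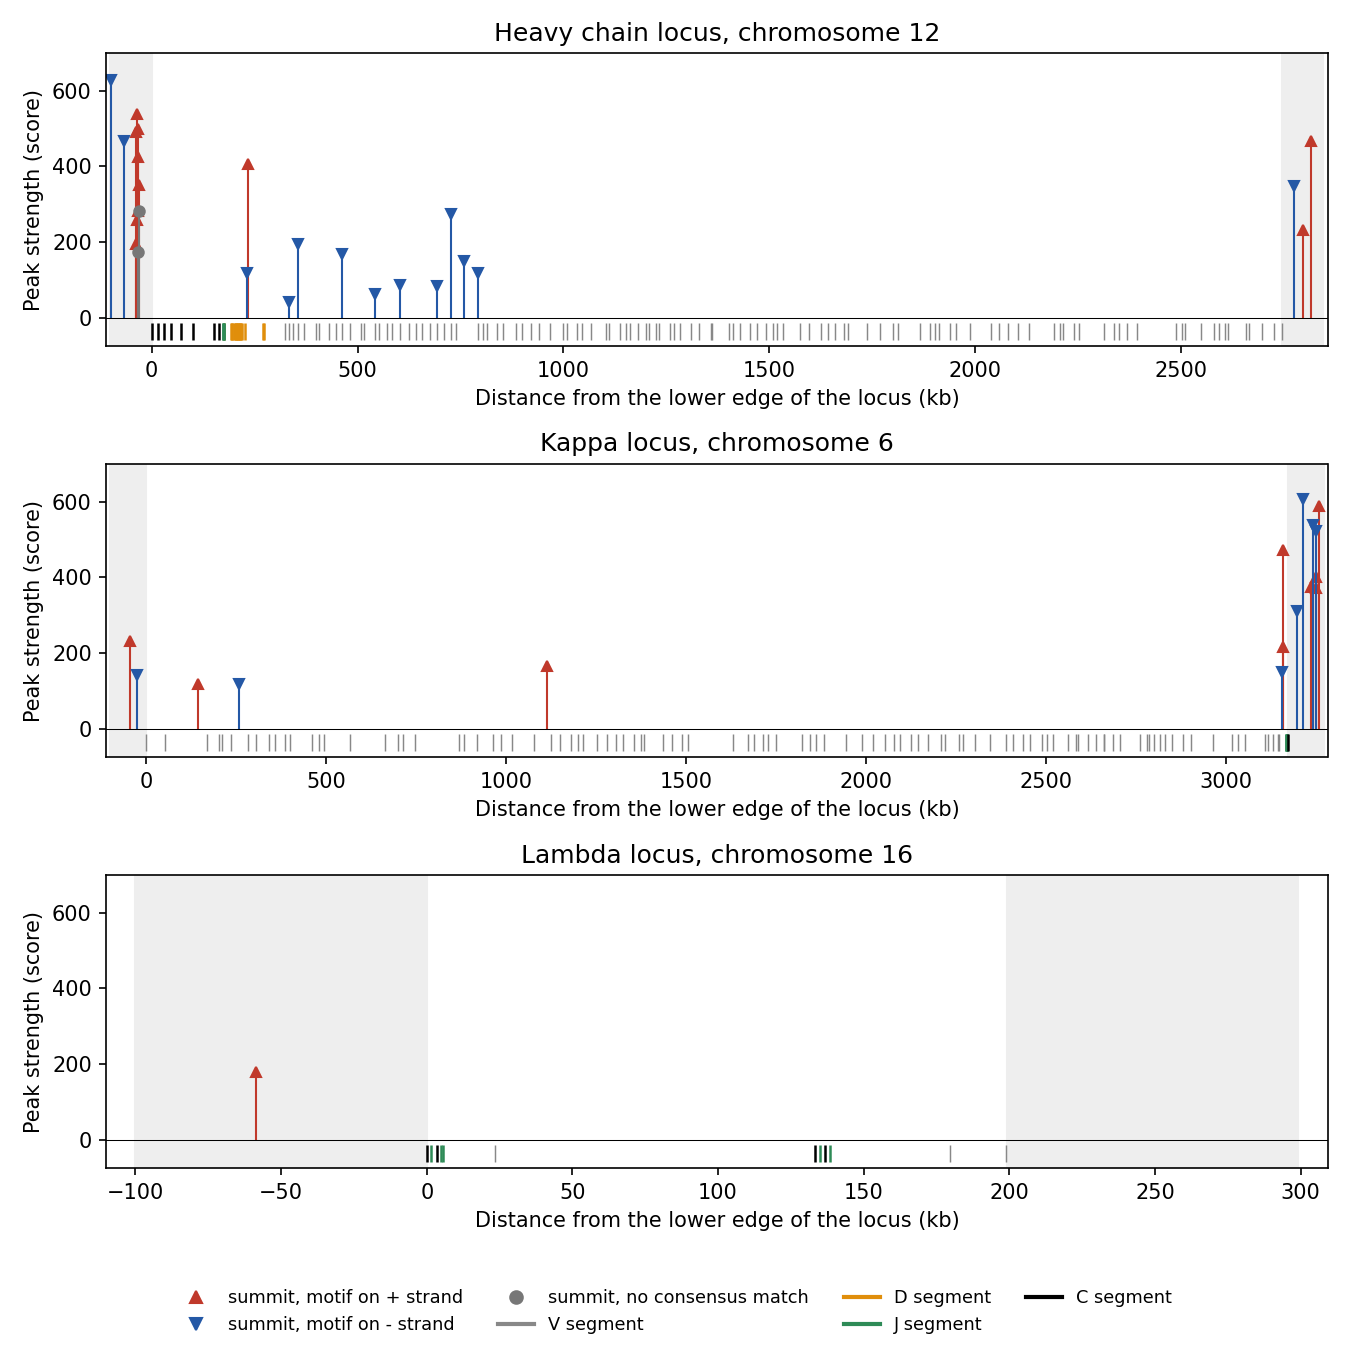
Strength of every conservative CTCF summit (vertical axis, the authors' score) against distance from the lower edge of each immunoglobulin locus (horizontal axis, kb); triangles show the strand of the CTCF consensus match, ticks show V, D, J and C segments, and grey bands are the 100 kb beyond each edge. The 11 heavy chain summits all lie in the part of the locus nearer the constant genes, the kappa locus has 3 near its J segments and 3 far from them, and the lambda locus has none.

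Summits were set against the CTCF consensus, a motif of 14 bases searched on both strands with at most 2 mismatches and its centre within 50 bp of the summit. All 17 summits inside the loci had a match (100%, interval 81.6 to 100%), against 77.6% of the 41000 conservative autosomal summits. In the flanks 24 of 26 had one (92.3%, interval 75.9 to 97.9%). A match is a description of the sequence and not proof of a bound site.

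In the heavy chain locus the matches beside V segments shared 1 direction and those in a cluster beyond the constant genes shared the other. All 113 V segments lie on the minus strand and the constant genes lie at the lower coordinates. The sequences that show the directions are printed here 5′ to 3′ along the strand of the motif, in mm10, with the consensus match in capitals and 13 bases on each side; the positions are those of the capitals.
Beyond Igha, chr12:113216118-113216131, plus strand: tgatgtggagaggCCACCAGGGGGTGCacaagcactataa
Beyond Igha, chr12:113220053-113220066, plus strand: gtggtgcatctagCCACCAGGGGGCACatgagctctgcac
Beside Ighd1-1, chr12:113485268-113485281, minus strand: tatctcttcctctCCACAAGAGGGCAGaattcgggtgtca
Beside Ighd1-1, chr12:113487888-113487901, plus strand: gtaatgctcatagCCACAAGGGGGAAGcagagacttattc
Ighv2-3, chr12:113611110-113611123, minus strand: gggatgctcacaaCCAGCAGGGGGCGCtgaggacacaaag
Ighv11-1, chr12:113981805-113981818, minus strand: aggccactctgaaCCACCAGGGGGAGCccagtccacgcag
All 9 matches among the heavy chain V segments were on the minus strand, reading toward the D, J and constant segments, and all 8 matches in the cluster beyond the constant genes were on the plus strand, reading toward the V segments. The 2 other matches in that flank were on the minus strand, and of the 3 in the flank at the V end 2 were on the plus strand and 1 on the minus strand. Over the autosomes, 49.8% of summit matches were on the plus strand.

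The cluster beyond the constant genes held 10 summits within 8.28 kb of intergenic sequence, 30.4 to 38.7 kb past the end of Igha, the gene of the IgA constant region, with Tmem121 as the nearest coding gene. Their strengths ran from 174.7 to 538.1 with a median of 316.7. In pool E they ran from 114.3 to 312.8 and in pool F from 36.9 to 230.4. The strongest summit, at 113218086, had a strength of 312.8 in pool E and 230.4 in pool F, and the next, at 113222234, had 306.0 and 205.8. The first had no overlapping peak in the pool E list and the second none in the pool F list. The next 2 were at 113216123 (strength 491.6) and 113220677 (424.7). Neighbouring summits were 200 to 1969 bp apart. The pair 200 bp apart shared a single peak. Its weaker summit, at 113222434, had no consensus match and no match to a weight matrix made from the consensus matches at autosomal summits. The summit at 113222962 matched the matrix only.

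Further out on that side, the summit at 113187770 in an intron of Tmem121 had a strength of 468.2, and the summit at 113156069, 352 bp from Tedc1, had 629.2. The latter was the strongest in any flank. It was in the conservative and pool F lists but had no overlapping peak in the pool E or combined lists. At the V end of the locus there were 3 summits in 100 kb, the strongest at 116071187 near Vipr2 with a strength of 466.1 and the nearest 27.8 kb beyond Ighv1-85, the last V segment.

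The constant, joining and most D segments had no summit near them. None of the 8 heavy chain C segments had a summit within 5000 bp of its start, with a Wilson interval of 0 to 32.4% (3 counts of the total, the limit that a count of 0 allows, would be 37.5%); the nearest of them, Igha, was 35.8 kb away, and Ighg3, which encodes the IgG3 constant region, was farthest at 124.0 kb. None of the 4 J segments had one either, at distances of 55.4 to 56.7 kb. Of 19 D segments, 1 had a summit within 5000 bp. It was Ighd1-1, at 3085 bp.

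The gap between Ighd1-1 and Ighd3-1, the widest between D segments (43.12 kb, chr12:113482193-113525312), held 2 summits. The one nearer to Ighd1-1, at 113485277, had a strength of 76.26 in pool E and 42.41 in pool F, and 118.2 in the conservative list. The one farther away, at 113487890, had 262.1 in pool E and 143.7 in pool F, and 407.3 in the conservative list, which made it the second strongest summit in the 3 loci. They were 2613 bp apart, lay in intergenic sequence near Adam6b, and were in the lists of both pools. Their matches pointed away from each other, the first toward the joining and constant segments and the second toward the V segments. As annotated, 17 D segments lie on the Ighd1-1 side of the gap and 2, Ighd3-1 and Gm16968, on the other side. The 2 summits thus lay between those 17 D segments and all V segments. The 50.45 kb between the last annotated D segment, Gm16968, and the first V segment had no conservative summit before the recombination signal of Ighv5-2. At that signal the pool E and combined lists had 1 summit.

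Beside heavy chain V segments the summits sat at a fixed place. Of 113 heavy chain V segments, 8 had a conservative summit within 1000 bp of their 3′ end (7.08%, interval 3.63 to 13.4%), against 5.88% of all autosomal genes. All 8 summits lay 50 to 71 bp beyond the end of the segment. The segments were Ighv2-2, Ighv2-3, Ighv2-6, Ighv2-6-8, Ighv5-17, Ighv4-1, Ighv11-1 and Ighv11-2.

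Ighv11-1 had the strongest of these summits, with a strength of 180.2 in pool E and 97.15 in pool F, and 274.6 in the conservative list. Ighv2-3 followed with 127.4 in pool E and 64.56 in pool F, and 195.8 in the conservative list. Ighv2-6 had 110 in pool E and 59.57 in pool F. These 3, together with Ighv11-2 (86.47 and 28.23), were the V segments whose summits were also in the pool F list. The other 4 were in the pool E list and not in the pool F list: Ighv5-17 had 60.43 in pool E and 26.6 in pool F, Ighv4-1 had 57 and 25.53, Ighv2-6-8 had 40.12 and 20.44, and Ighv2-2 had 30.57 and 13.28. The conservative strength of Ighv2-2, 42.8, stood at percentile 0.292 of the list. A further V-region summit, at 114013069 (149.4), lay 18.2 kb from the nearest member but 75 bp from the V pseudogene Ighv4-2, and the 40 bases around its match were identical to those beside Ighv4-1 at 39 positions.

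To see how general this placement was, the heptamer was located at each V segment (at most 1 mismatch, from 10 bp before to 20 bp after the annotated end) and the consensus was searched within 100 bp of it. A heptamer was found at 106 of 113 heavy chain V segments. Of these, 37 (34.9%) had a consensus match, all 37 lay beyond the segment, and all 37 were on the strand of the segment. The distance from heptamer to motif centre was 58.5 to 81.5 bp with a median of 66.5 bp, and 23 of the 37 were at exactly 66.5 bp and 9 at 64.5 bp. In windows moved by 2000 bp to either side, 3 and 5 of 209 V segments of all loci had a match (1.44% and 2.39%), against 38 of 209 at the heptamer.

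**Figure D2:**
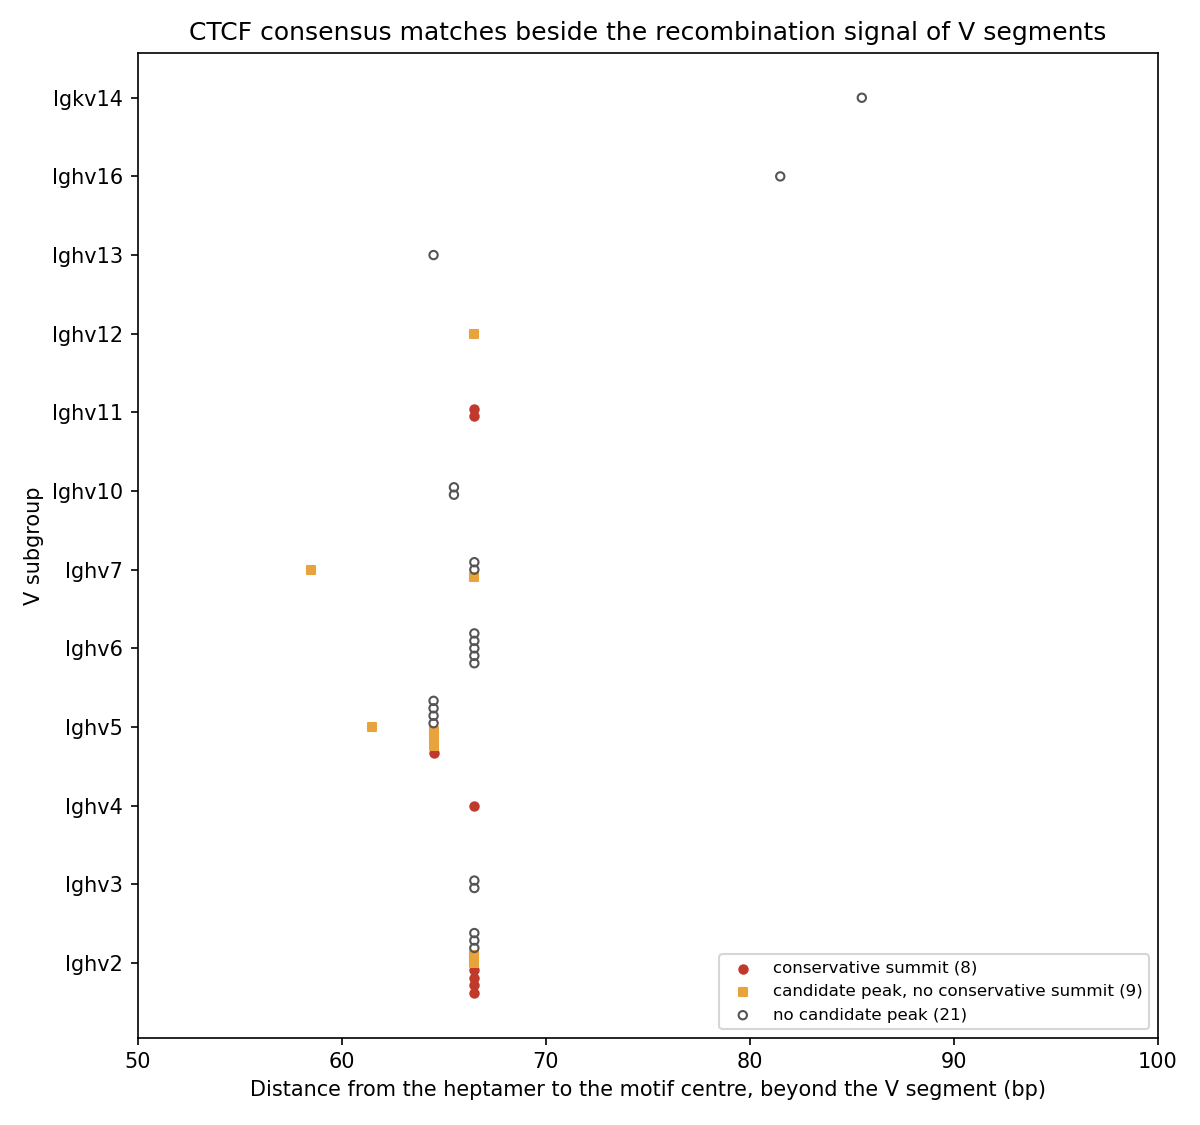
Distance in bp from the recombination signal heptamer to the centre of the nearest CTCF consensus match (horizontal axis) for each V segment that has one within 100 bp, by V subgroup (vertical axis; points at the same distance are stacked); colours show whether the match carries a conservative summit (8), a candidate peak in a ranked list but no conservative summit (9) or neither (21). The matches stand in a column near 66.5 bp in subgroups that differ in occupancy.

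The placement followed the V subgroup, a family of V segments with related sequence. All 9 Ighv2, 5 Ighv6, 4 Ighv7, 2 Ighv10 and 2 Ighv11 segments had the match, as did 9 of 10 Ighv5 segments and the single members of Ighv4, Ighv12, Ighv13 and Ighv16. Of the 50 Ighv1 segments with a heptamer, the largest subgroup of the locus, 0 had it, and neither did any of the 6 Ighv8, 4 Ighv9 and 4 Ighv14 segments with a heptamer or the single Ighv15 segment. Ighv3 was mixed, with 2 of 5. Of 100 kappa V segments with a heptamer, 1 had a match, Igkv14-111, at 85.5 bp and on the opposite strand, and none of the 3 lambda V segments had one.

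Many of these matches carried no summit in muscle. Of the 37, 8 had a conservative summit within 50 bp, 9 had a candidate peak in a ranked list but no conservative summit, and 20 had none. Of the 9, Ighv5-2 and Ighv2-9 had a summit in the pool E list. The 37 were 12 exact matches, 17 with 1 mismatch and 8 with 2. A conservative summit was carried by 5, 3 and 0 of these. The autosomal shares were 79.5% of exact matches, 24.9% of those with 1 mismatch and 3.37% of those with 2. Only the exact matches were thus far below the autosomal share. The sequences below show how alike occupied and unoccupied sites could be; capitals again mark the consensus match, and all are on the minus strand.
Ighv2-2, conservative summit, chr12:113588193-113588206: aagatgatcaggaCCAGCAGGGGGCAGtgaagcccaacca
Ighv2-5, no candidate, chr12:113685408-113685421: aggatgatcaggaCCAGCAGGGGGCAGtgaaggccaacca
Ighv5-17, conservative summit, chr12:113859077-113859090: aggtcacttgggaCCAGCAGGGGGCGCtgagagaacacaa
Ighv5-2, pool E and combined lists only, chr12:113578432-113578445: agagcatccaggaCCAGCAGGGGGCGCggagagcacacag
Ighv5-12, no candidate, chr12:113702052-113702065: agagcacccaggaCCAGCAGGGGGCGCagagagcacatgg
Ighv6-5, no candidate, chr12:114416522-114416535: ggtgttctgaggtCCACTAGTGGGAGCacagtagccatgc
Ighv2-2 and Ighv2-5 were identical at 38 of these 40 bases. Ighv5-12 and Ighv5-6 (not printed) were identical at 40 of 40, and neither had a candidate peak within 50 bp of its match. Of the 50-base words within 250 bp of these matches, 58.4% and 48.5% occurred once in mm10. The share was 95.1% at Ighv2-2 and 98.9% at Ighv5-17, which had a summit, and 85.8% at Ighv2-5, which had none. Against that order, Ighv2-6-8 had a summit at 82.1%, and Ighv5-2 had no conservative summit although every such word occurred once. The part of repeated sequence in these differences was not tested. Ighv5-2, a V segment next to the D segments that is known for frequent use in early rearrangements, had an exact match and a strength of 39.91 in the pool E list, but its IDR between the pools was 0.61. At Ighv5-6 the pool E and combined lists had a summit 119 bp from the segment, outside the 50 bp allowed around its match. Ighv2-9 had a summit in the pool E list (35.28) and not in the conservative list.

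The 8 matches with a summit were closer to the consensus than the 20 without a candidate peak. They had 5 exact matches, 3 with 1 mismatch and 0 with 2, and a median weight matrix score (log2 odds) of 20.4. The 20 without a candidate peak had 3, 9 and 8, and a median score of 14.5. The 9 with a candidate but no conservative summit lay between, with 4, 5 and 0 and a median score of 18.4. A CG dinucleotide, the site of DNA methylation, was present in 5 of the 8. It was also present in 7 of the 9 with a candidate but no conservative summit and 4 of the 20 without. Over the autosomes, among matches with 0 or 1 mismatches, 35.6% of those with a conservative summit held a CG, against 13.8% of those without. The 20 are an unlike set, because 8 of them had 2 mismatches. All 4 with a CG were among the 3 exact matches and the 9 with 1 mismatch. No methylation data were used. The ranges of the matrix score overlapped: occupied matches scored 13.3 to 20.8 and those without a candidate 7.26 to 20.3. Windows at least 90% unique in the genome, a measure explained with the exact matches, surrounded 2 of the 8 segments with a summit and 14 of the 20 without a candidate.

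Every V segment with a summit lay on the D side of the locus. The 27 V segments from Ighv5-2 to Ighv11-2, on the D side, included 24 with a match at the heptamer, of which 8 carried a conservative summit (33.3%, interval 18 to 53.3%) and 10 a pool E summit. Among the 86 V segments beyond Ighv11-2 there were 13 with a match and 0 with a conservative or pool E summit (interval 0.0 to 22.8%). None of those 13 matches was exact, whereas 12 of the 24 on the D side were, so position and match quality cannot be told apart here. On the autosomes, a conservative summit was carried by 79.5% of exact matches, 24.9% of those with 1 mismatch and 3.37% of those with 2. From the Ighv11-2 summit to the first summit past the V end of the locus there was no summit for 1.98 Mb in any of the 4 thresholded lists. Between neighbouring conservative summits on the autosomes, 72 of 40981 stretches were at least that long.

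The stretch was not without motifs. The heavy chain locus held 45 exact consensus matches, all on the minus strand, and 5 carried a conservative summit (11.1%, interval 4.84 to 23.5%), against 79.5% of exact matches on the autosomes. Of the 45, 12 lay beside a V heptamer; 10 of these held a CG and 5 carried a conservative summit. The other 33 lay elsewhere. Of them, 0 held a CG, 0 carried a conservative summit and 6 had a candidate peak. Autosomal shares with a CG, for 0 or 1 mismatches, were 35.6% with a conservative summit and 13.8% without. Of these 33, 30 were nearest to an Ighv1 segment, and 10 lay 738.5 to 816.5 bp before the start of one. The sequences below, on the minus strand, show the shared form of these distal matches.
Before Ighv1-52, candidate only, chr12:115146674-115146687: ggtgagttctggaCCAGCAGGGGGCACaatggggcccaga
Before Ighv1-53, no candidate, chr12:115159642-115159655: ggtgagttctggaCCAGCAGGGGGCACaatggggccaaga
Before Ighv1-76, no candidate, chr12:115851896-115851909: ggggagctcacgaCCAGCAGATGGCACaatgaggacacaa

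With 1 or 2 mismatches allowed the difference from the autosomes went the same way. Over the 3 loci together, 7 of 195 matches with 1 mismatch carried a conservative summit (3.59%, interval 1.75 to 7.22%), against 24.9% on the autosomes. Of 786 with 2 mismatches 5 did (0.636%, interval 0.272 to 1.48%), against 3.37%. In the flank beyond the heavy chain constant genes 8 of 45 matches with 2 mismatches did (17.8%, interval 9.29 to 31.3%), and in the flank beyond the kappa constant gene all 5 exact matches did (interval 56.6 to 100%). With up to 2 mismatches there were 18.1 matches per 100 kb in the heavy chain locus, 15.8 in the kappa locus and 21.8 on the autosomes. Exact matches numbered 1.64 per 100 kb in the heavy chain locus, 0.0315 in the kappa locus (1 match) and 0.264 on the autosomes.

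**Figure D3:**
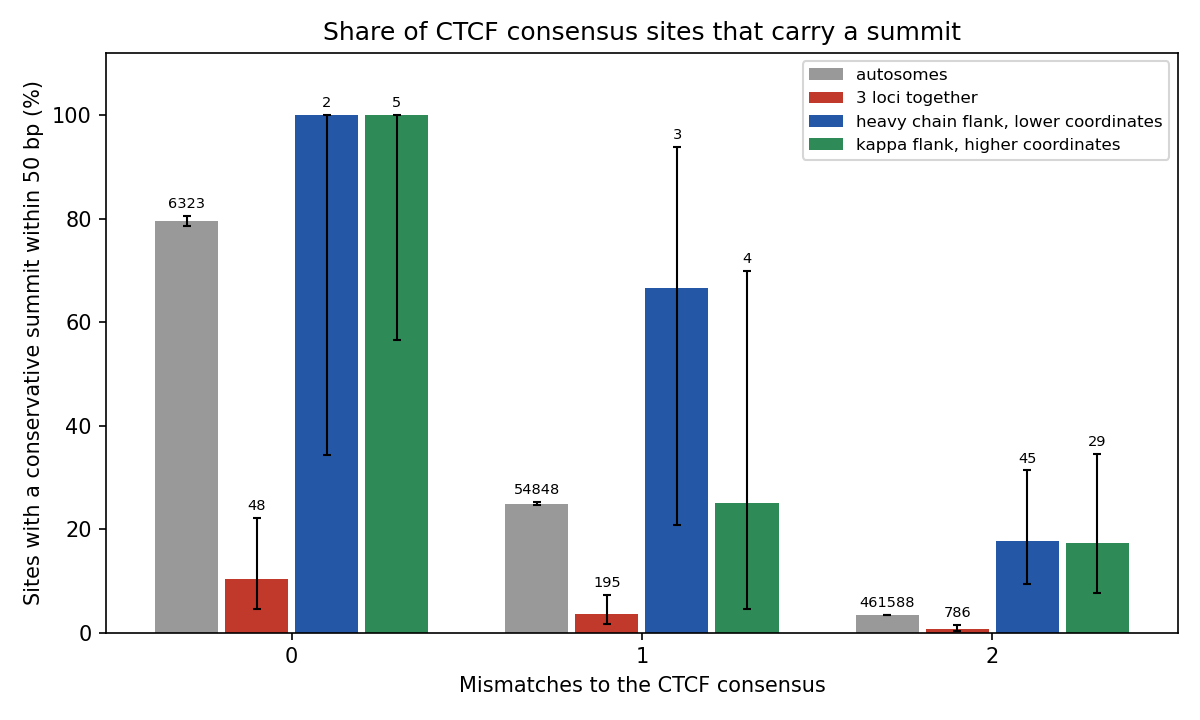
Share of CTCF consensus matches with a conservative summit within 50 bp (vertical axis, %) by number of mismatches (horizontal axis), for the autosomes, the 3 immunoglobulin loci together and the flanks beyond the constant ends of the heavy chain and kappa loci; error bars are 95% Wilson intervals and the number above each bar is the number of matches. Inside the loci 10.4% of exact matches carried a summit, against 79.5% on the autosomes and all exact matches in the flanks shown (2 of 2 and 5 of 5). Among flanks not shown, the heavy chain flank at the V end had 0 of 1 and the lambda flank beyond Iglc1 had 1 of 1.

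V segments are repeated sequences, and how reads that fit several places were treated is not given in the sources used here; its part in the shares above was not tested. For each exact match, the share of 50-base words within 250 bp that occur once in mm10 was computed, a split chosen after seeing the data. On the autosomes, exact matches in windows at least 90% unique carried a summit in 83.1% of 5685 cases, and those in windows under 50% unique in 10.2% of 196. In the loci the same shares were 3 of 14 (21.4%, interval 7.57 to 47.6%) and 0 of 7. Of the heavy chain V segments 45 of 113 had a window at least 90% unique around their 3′ end, as did 7 of the 17 summits inside the loci and 23 of the 26 in the flanks.

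**Figure D4:**
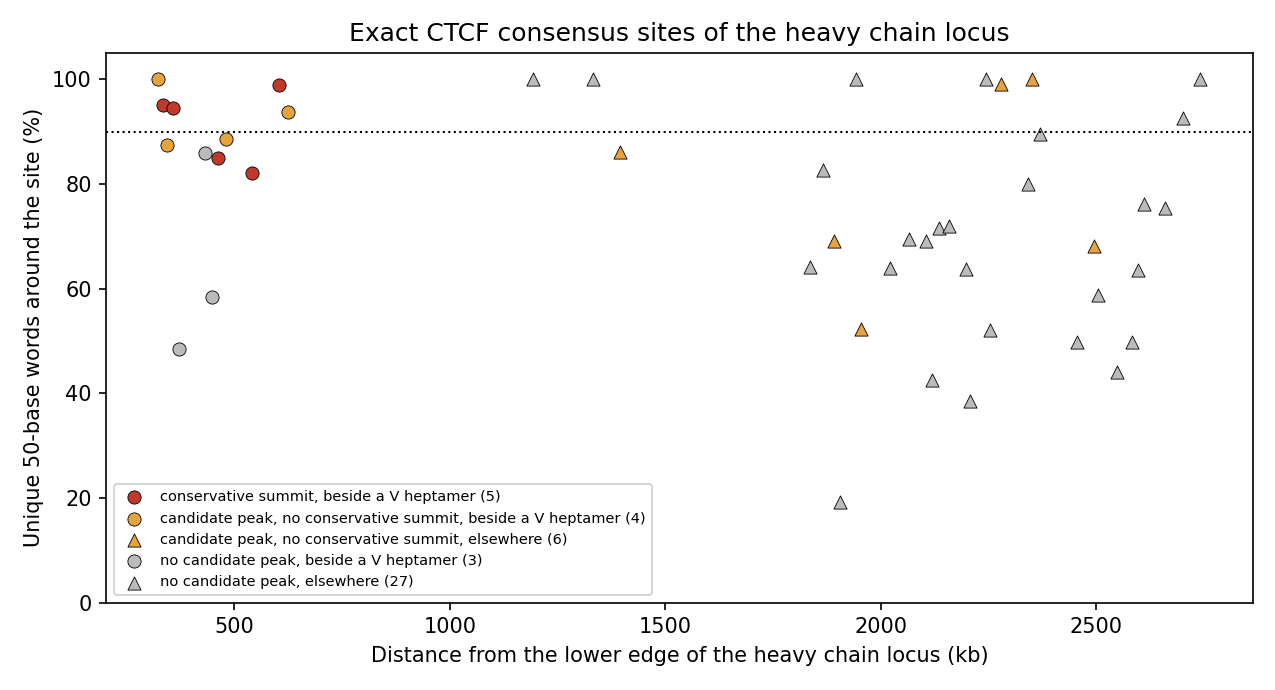
Share of 50-base words within 250 bp that occur once in mm10 (vertical axis, %) for the 45 exact CTCF consensus matches of the heavy chain locus, by distance from the lower edge of the locus (horizontal axis, kb); circles lie beside a V heptamer, triangles elsewhere, and colour shows the peak carried. The 5 matches with a conservative summit are all among the 12 beside a heptamer, and matches without a candidate peak occur both above and below the dotted line at 90%.

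The kappa locus had no summit beside a V segment. No kappa V segment had a conservative summit within 1000 bp of its 3′ end (0 of 102, Wilson interval 0 to 3.63%; taken as 3 counts of the total, a count of 0 allows a share of up to 2.94%). The 18.38 kb between Igkv3-1, the last V segment, and Igkj1, the first J segment, held 3 summits, a density of 16.3 per 100 kb. Their sequences are printed with the consensus match in capitals.
Nearest Igkv3-1, chr6:70709468-70709481, minus strand: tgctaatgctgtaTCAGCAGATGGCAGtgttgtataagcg
Middle, chr6:70713312-70713325, plus strand: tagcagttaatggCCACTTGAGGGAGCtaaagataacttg
Nearest Igkj1, chr6:70714402-70714415, plus strand: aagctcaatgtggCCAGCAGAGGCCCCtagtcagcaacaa
The summit nearest to Igkv3-1, 5290 bp from it, had a strength of 94.17 in pool E and 54.58 in pool F. The middle summit had 149.2 and 66.69. The summit nearest to Igkj1, at 70714402 and 8160 bp from that segment, had 284.9 in pool E and 185.9 in pool F, and its conservative strength of 471.3 was the highest inside any of the loci. The first match faced the V segments and the other 2 faced the J segments and Igkc, the constant gene. The pool F and combined lists had a further summit 5729 and 5735 bp from Igkv3-1.

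Among the kappa V segments there were 3 summits, 11.8 to 25.8 kb from the nearest V segment. The summit at 67699150 had 85.76 in pool E and 28.74 in pool F, the summit at 67812686 had 87.43 and 29.93, and the summit at 68668595 had 132.6 and 34.52. The ratio of pool E to pool F at the last, 3.84, was the highest of the 17, and it had no overlapping peak in the pool F list. Sequence around these summits was repeated, with 36.3%, 64.8% and 87.2% of 50-base words unique. Of their matches 2 faced the constant gene and 1 did not, and kappa V segments themselves lie on both strands, 38 on the plus strand and 64 on the minus strand. No conservative summit was found for 2.04 Mb between the summit at 68668595 and the one nearest to Igkv3-1, a stretch with 75 of the 102 V segments; 64 of 40981 autosomal stretches were at least as long. The pool E and combined lists had 1 summit in it, 2999 and 3008 bp from Igkv8-28 (37.99 and 52.31).

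The 5 kappa J segments were 8.16 to 9.48 kb from a summit and Igkc was 12 kb from one. Past Igkc there were 8 summits in 100 kb, with strengths from 310.3 to 608.1 and a median of 462.6, and all 8 were in both pool lists. The strongest was in an intron of Rpia, a pentose phosphate pathway enzyme gene, with 348.4 in pool E and 265.1 in pool F. The next, at 70812038 (588.4), 70798043 (538.2), 70806128 (522.7) and 70804776 (402.4), were intergenic and had exact consensus matches. Of the 8 matches, 4 were on each strand. On the V side of the kappa locus there were 2 summits, the stronger at 67510935 (232.2), nearest to Il23r.

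The lambda locus had no conservative summit among its 32 consensus matches, and the segment whose start was nearest to one was Iglc1, a lambda constant gene, at 58.9 kb. The pool E and combined lists had 2 summits inside it. Near Iglv1 the strength was 38.23 in pool E, and at 19146790 it was 40.84. The latter lay on an exact match whose surrounding bases recur in the flank, where the only conservative summit near the locus was found 58.5 kb beyond Iglc1; both are on the plus strand.
Inside, chr16:19146788-19146801: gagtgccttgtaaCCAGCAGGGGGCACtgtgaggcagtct
Flank, chr16:19003150-19003163: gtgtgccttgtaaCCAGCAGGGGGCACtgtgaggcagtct
These 2 sequences were identical at 39 of 40 bases. The flank site had a strength of 121.3 in pool E and 59.13 in pool F and was in all 4 thresholded lists, while the inside site had an IDR of 0.61 between the pools and strengths of 40.84 and 12.64 in the ranked list.

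Counted by segment, 9 of the 264 members had a conservative summit within 5000 bp of their start (3.41%, interval 1.8 to 6.35%), against 27.3% of all autosomal genes. These were the 8 heavy chain V segments and Ighd1-1. The median distance from a member's start to the nearest summit was 228.0 kb, with 344.0 kb for heavy chain V and 351.0 kb for kappa V segments, against 16.4 kb for all autosomal genes. Segments of a locus share their neighbourhood, so these distances are not independent.

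The conservative list was selected for agreement between the pools, so presence in both was largely set in advance. All 17 summits inside the loci lay in a peak that overlapped a pool E peak, and 12 overlapped a pool F peak. With a reciprocal overlap of 50% the numbers were 15 and 10. The pool F list is the shorter (33784 peaks against 50899), and the same shares over all conservative peaks are not given here. The ratio of pool E to pool F strength was 1.53 to 3.84 with a median of 2.23, against 2.04 for all conservative autosomal peaks. The strengths of the 26 flank summits had a median ratio of 1.81.

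**Figure D5:**
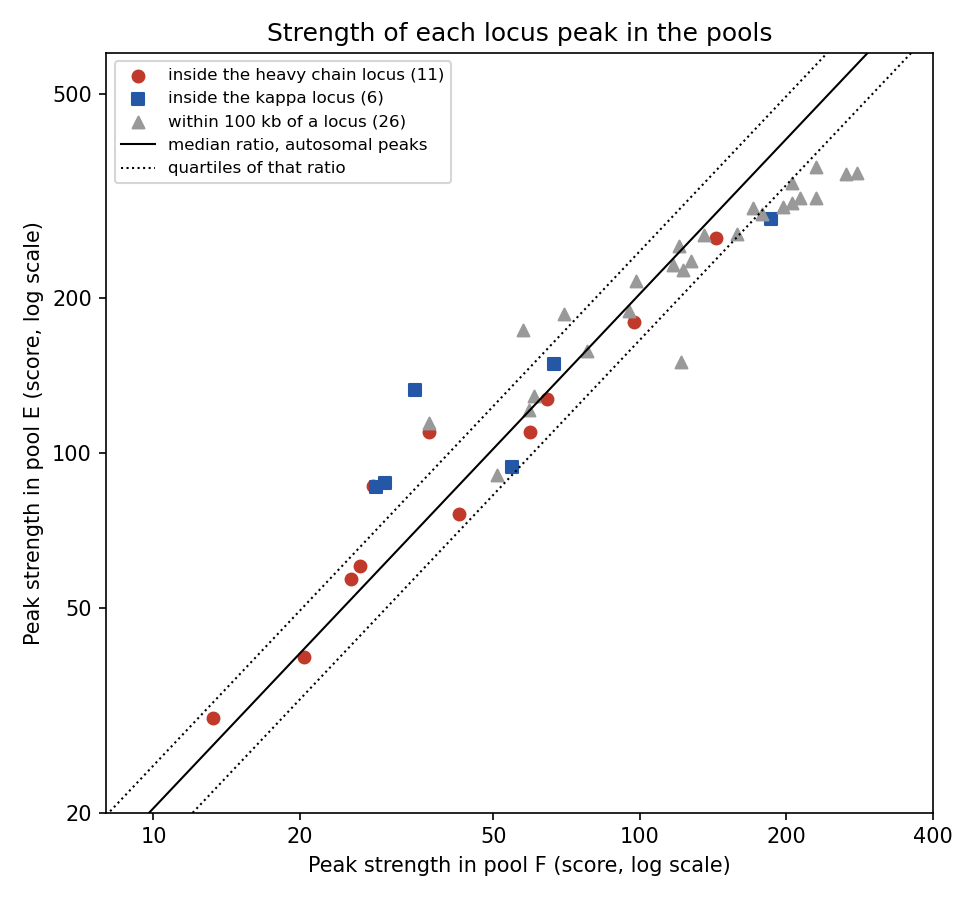
Strength of the 43 conservative summits inside or within 100 kb of the loci in pool E (vertical axis) against pool F (horizontal axis), both the authors' score on log scales; the solid line is the median ratio of all conservative autosomal peaks (2.04) and the dotted lines its quartiles. Summits inside the loci lie at lower strengths than most flank summits, and the 3 V-region kappa summits lie above the upper quartile line. So do the heavy chain summits at 114013069 (ratio 2.98) and beside Ighv11-2 (3.06), and some flank summits, the highest at 3.1.

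Genes that act in recombination and in B cells were looked at as a separate list of 40 protein-coding genes, all on autosomes. Of these, 13 had a conservative summit within 5000 bp of their start (32.5%, interval 20.1 to 48.0%), against 38.2% of all autosomal protein-coding genes. The strongest were at Nhej1 (532.1), Xrcc6 (490.0) and Lig4 (487.4), whose products join DNA ends in all cells. Rag1, which encodes the catalytic subunit of the recombinase, had one of 422.1 at 3552 bp, while its partner Rag2, the first gene on the list without one, was 23939 bp from the nearest summit.

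The T cell receptor loci are built of V, D, J and C segments in the same way and were the loci most like these. Of their 226 segments 35 had a conservative summit within 5000 bp of the start (15.5%, interval 11.4 to 20.8%). The alpha and delta locus had 19 summits (1.06 per 100 kb), the beta locus 8 (1.2) and the gamma locus 0, against 0.401, 0.189 and 0.0 in the heavy chain, kappa and lambda loci. Their strengths were similarly low, with medians of 129.0 (alpha and delta) and 144.7 (beta), against 149.4 inside the immunoglobulin loci. Of 144 T cell receptor V segments, 13 had a summit within 1000 bp of the 3′ end (9.03%, interval 5.35 to 14.8%), the nearest of them 565 bp away, whereas all 8 such heavy chain V summits were within 71 bp. Of the 28 exact consensus matches in these loci 7 carried a summit (25%, interval 12.7 to 43.4%), against 5 of 48 (10.4%, interval 4.53 to 22.2%) in the immunoglobulin loci; in windows at least 90% unique the counts were 3 of 5 and 3 of 14. These differences were not tested.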

How the data were processed

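CTCF chromatin immunoprecipitation was sequenced in 4 libraries, 2 technical replicates of each pool. The authors deposited peak lists in narrowPeak form, with replicates merged. In them column 7, the strength, is a score whose scale is not stated; the summit position is an offset deposited with each peak. The ranked lists deposited by the authors also hold the strength score in both inputs and −log10 of the IDR. Per the notes deposited by the authors, peaks were called on mm10 from merged technical replicates with a shared control alignment, and the thresholded lists were filtered with a further file that the notes do not describe. The aligner, the peak caller and the treatment of repeated reads are not given in the sources used here. No read counts were used, so the depth is unknown.

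Summits were set against GENCODE M21 on GRCm38.p6 with Python 3.11.15, numpy 2.4.6, pandas 2.3.3, scipy 1.17.1 and matplotlib 3.10.9, and the scripts were tested on simulated data. Windows were 5000 bp around gene starts, 1000 bp around 3′ ends and 100000 bp beyond locus edges. A weight matrix was a second motif measure. It was made from the consensus matches at summits on the autosomes without an immunoglobulin locus, so its score is not independent of the mismatch count. Named were each locus with its strongest summits, each V subgroup with its strongest summit beside a 3′ end, the V segments nearest to a summit, D, J and C segments as counts, and the strongest 3 and first unmatched genes of the B cell list. Members and lists were chosen with earlier results of these data known. Alternatives were other lists, a list cut to the stronger peaks, wider bounds and windows, fewer mismatches, other overlaps and other word lengths. No test was made because replicates were merged.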

Additional observations from a re-analysis of the deposited data

How the results depend on the processing

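Over 13 results and 69 alternatives, 51 values stayed within the limits set for each and 18 moved. Summits inside the heavy chain locus numbered 7 in the pool F list, 2 among the conservative peaks at or above the median strength and 26 with bounds widened by 100 kb; kappa summits numbered 1 in the stronger peaks and 16 with widened bounds. The lambda locus had 2 in the combined list, 2 in the pool E list and 1 with widened bounds. Segments with a summit near their start made up 0.379% in the stronger peaks and 12.1% with a window of 20000 bp. Heavy chain V segments with a summit at their 3′ end numbered 4 in the pool F list and 1 in the stronger peaks. With at most 1 mismatch, 70.6% of summits inside the loci had a match, and the share of kappa V matches facing the constant gene went from 66.7% to 100%, with 1 match left; the stronger peaks left no such match. Pool F partners fell to 11.8% at 80% overlap, and pool E partners came to 100% at 1 bp. V windows of unique sequence went from 39.9% to 26.6% with words of 36 bases and 76.6% with words of 100 bases. The causes were not tested. An alternative chosen after seeing the data, exact matches in unique sequence only, gave 21.4% with a summit against 10.4%. No paired analysis was possible because the lists merge the replicates and no test was made. Depth is unknown, so a missing summit means only that none was listed.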
